A study of Mus musculus with 3 samples.

Results

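Circadian clock genes were examined in cardiac myofibroblasts, the contractile fibroblasts that lay down matrix in the injured heart. The list held 10 genes, Arntl, Clock, Per1, Per2, Per3, Cry1, Cry2, Nr1d1, Nr1d2 and Dbp and is defined by these gene names, with no threshold on a measured value. They were read by 11 probes of an Agilent SurePrint G3 mouse array, through the RefSeq transcript that each probe is named for. All 10 were well above background on all 3 arrays, as were 13479 of the 15394 genes that could be compared.

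The cells came from infarcted hearts of male C57BL/6J mice, taken 3 days after the left anterior descending coronary artery was permanently ligated. The labels give the age as 8 weeks in one field and as 10 weeks at ligation in another. Cells that attached to plastic overnight and lacked the leukocyte protein CD45 were taken as myofibroblasts. They were cultured on plastic ("adherent"), then held in suspension on low-attachment plates ("non-adherent"), then put back on plastic ("re-adherent"), for about a week in each state. Each state was read on 1 array, with RNA pooled over a number of hearts, which leaves no spread between biological samples and allows no p-value. Most cells were lost in suspension per the study's methods, so the non-adherent array reads the survivors. The re-adherent array reads cells grown from such survivors.

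The mammalian clock is a loop of transcription and translation that runs in nearly every cell, fibroblasts in culture included. ARNTL (also called BMAL1) and CLOCK bind as a pair to E-box sequences and activate the Per, Cry, Nr1d and Dbp genes; PER and CRY proteins then repress that pair. NR1D1 and NR1D2 (REV-ERB alpha and beta) repress Arntl through a second type of site, and DBP activates genes through D-box sequences. Transcripts of several of these genes swing over the day, and cultured cells are set in phase by medium, serum or hormone. Each state was sampled at a single time. The hour of collection and the time since the last change of medium are not given in the sources used here, so the phase of the clock cannot be told apart from the state of the cells.

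Signals are given as processed fluorescence in intensity units, and differences on the log2 scale after each array was divided by its 75th percentile of signal, which was 651, 697 and 541 units. Values given in threes for a gene are for adherent, then non-adherent, then re-adherent cells, and differences given in threes are for the step into suspension, the step of re-adhesion, and re-adherent against adherent cells. The signals themselves are printed unscaled, so a gene such as Arntl can read fewer units on the dimmer re-adherent array and still have a positive difference. The lowest signal well above background was 14.0 to 18.3 units. The error given with a difference is the scanner software's estimate, which covers technical error within arrays only; its median over genes was 0.20. Probes spotted 10 times differed less, with a median SD of 0.06 to 0.08 for the difference between spots in a pair of arrays. A change of more than 2-fold is called a rise or a fall below.

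In suspension, 1 of the 10 clock genes rose more than 2-fold, against 17.2% of all genes, and 0 fell, against 14.7% of all genes. The gene that rose was Dbp. From suspension to re-adhesion, 1 of the 10 rose, Nr1d1, against 15.6% of all genes, and 0 fell, against 16.3%. Between re-adherent and adherent cells 1 of the 10 was more than 2-fold higher, again Dbp, against 4.84% of all genes, and 0 were lower, against 4.9%. The median difference of the 10 genes was 0.00, 0.03 and 0.30 in the 3 comparisons, beside -0.07, 0.08 and 0.06 over all genes. In each of the 2 steps 9 of the 10 clock genes lay between the 10th and the 90th percentile of all genes.

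**Figure D1:**
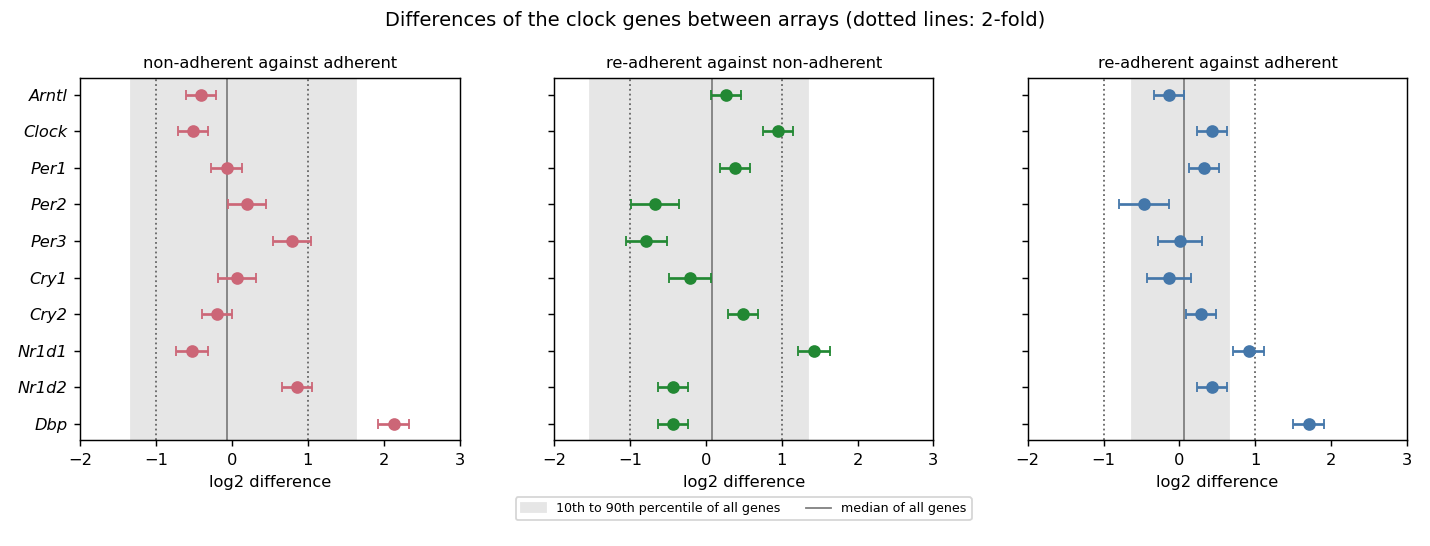
Log2 differences of the 10 clock genes in the 3 comparisons (points, 1 array per state; bars, the scanner software's error of the difference), with the 10th to 90th percentile of all 15394 genes shaded, the median of all genes as a line and 2-fold as dotted lines. Dbp lies beyond the shaded range in non-adherent against adherent cells (2.13) and in re-adherent against adherent cells (1.70), and Nr1d1 lies beyond it in re-adherent against non-adherent cells (1.43) and in re-adherent against adherent cells (0.91).

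Dbp encodes a transcription factor of the PAR bZIP family and is a direct target of ARNTL and CLOCK. It gave 1590 units in adherent cells, 7452 in suspension and 4309 after re-adhesion. The lowest value was thus in adherent cells, before suspension, and both later states stood above it. Dbp was 2.13 higher in suspension, or 4.38-fold, with an error of 0.20, and 6.73% of all genes had a larger rise. On re-adhesion it was 0.43 lower than in suspension, with an error of 0.20, and it remained 1.70 above the adherent level, or 3.26-fold. Of all genes, 1.73% had a larger positive difference in that last comparison. A second probe of the same transcript read 1404, 7890 and 3883 units, which gave differences of 2.39, -0.66 and 1.73. Both probes placed the 3 states in the same order, non-adherent above re-adherent above adherent.

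Nr1d1 and Nr1d2 encode a pair of related nuclear receptors that act as repressors. Nr1d1 read 425 units in adherent, 316 in non-adherent and 663 in re-adherent cells. It was lowest in suspension, by -0.53 with an error of 0.21, and highest after re-adhesion, where it rose by 1.43, or 2.70-fold, with an error of 0.21. The re-adherent level was 0.91 above the adherent one, with an error of 0.20, and 5.63% of all genes lay higher in that comparison. Nr1d2 ran in a different order, with 462, 898 and 519 units. It was 0.86 higher in suspension, 0.43 lower again on re-adhesion and 0.43 above its adherent level at the end, each with an error of 0.20. The last value turned to -0.04 with scaling to the spike-in probes. The 2 paralogs therefore differed from each other on the same arrays, with Nr1d1 minus Nr1d2 at -1.39 for the step into suspension and 1.86 for re-adhesion, each with an error of 0.29. Such a difference between genes does not depend on a factor applied to a whole array. In re-adherent against adherent cells it was 0.47, with the same error.

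Neither activator passed 2-fold in any comparison. Arntl read 975, 785 and 737 units. Its difference was -0.41 in suspension, with an error of 0.20, and 0.27 on re-adhesion, a value that ran from -0.09 to 0.29 over the settings tried. Re-adherent and adherent cells differed by -0.14, less than the error of 0.20. Clock read 1109, 832 and 1245 units and was also lower in suspension, by -0.51, with an error of 0.20. Its difference on re-adhesion, 0.95, came close to 2-fold without passing it. The spots around the Clock probe on the slide had a median difference of 0.76 in that pair of arrays, and with this subtracted Clock was 0.19 higher; the part of the slide position in the value was not tested. Re-adherent cells were 0.43 above adherent ones for Clock, and at -0.04 with spike-in scaling. In the step into suspension Clock and Arntl differed from each other by -0.10, less than the error of 0.29, and on re-adhesion by 0.67, with the same error. With the surrounding spots subtracted they lay closer together on re-adhesion, Clock at 0.19 and Arntl at -0.02.

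The Period genes, whose proteins carry the repression of the loop, differed among themselves. Per1, which is also induced directly by many stimuli, read 3331, 3393 and 3454 units. It differed by 0.39 on re-adhesion, a value that ran from -0.03 to 0.40 over the settings tried. Its differences of -0.07 in suspension and 0.32 between re-adherent and adherent cells, each with an error of 0.20, were small, and both changed sign under other scalings. Per3 read 40.3, 74.5 and 33.7 units, highest in suspension. It was 0.79 higher there, with an error of 0.25, differed by -0.78 on re-adhesion, and ended 0.01 from its adherent level, with an error of 0.29. With the normexp background correction the differences of Per3 shrank to 0.38 in suspension and to -0.23 on re-adhesion. Per2 read 39.7, 48.9 and 23.9 units. Its difference of 0.20 in suspension was below the error of 0.25, and it was -0.67 on re-adhesion, with an error of 0.32, which shrank to -0.03 with the same correction. Re-adherent cells were at -0.47 against adherent ones, with an error of 0.33, and at 0.03 with that correction. Per2, Per3 and Cry1 were dim, within a few times the lowest signal that counted as well above background, so their differences carry the largest errors of the list. Per1 minus Per3 was -0.86 in suspension and 1.17 on re-adhesion, with errors of 0.32 and 0.34.

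The cryptochromes, which bind the PER proteins and repress ARNTL and CLOCK, stayed within 0.49 of log2 in all comparisons. Cry1 read 49.1, 55.3 and 37.2 units, and its differences of 0.07, -0.21 and -0.14 were all below their errors of 0.25, 0.28 and 0.29. Cry2 read 3160, 2934 and 3194 units. It differed by -0.20 in suspension, 0.49 on re-adhesion and 0.28 between re-adherent and adherent cells, each with an error of 0.20. The last of these was -0.19 with spike-in scaling.

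**Figure D2:**
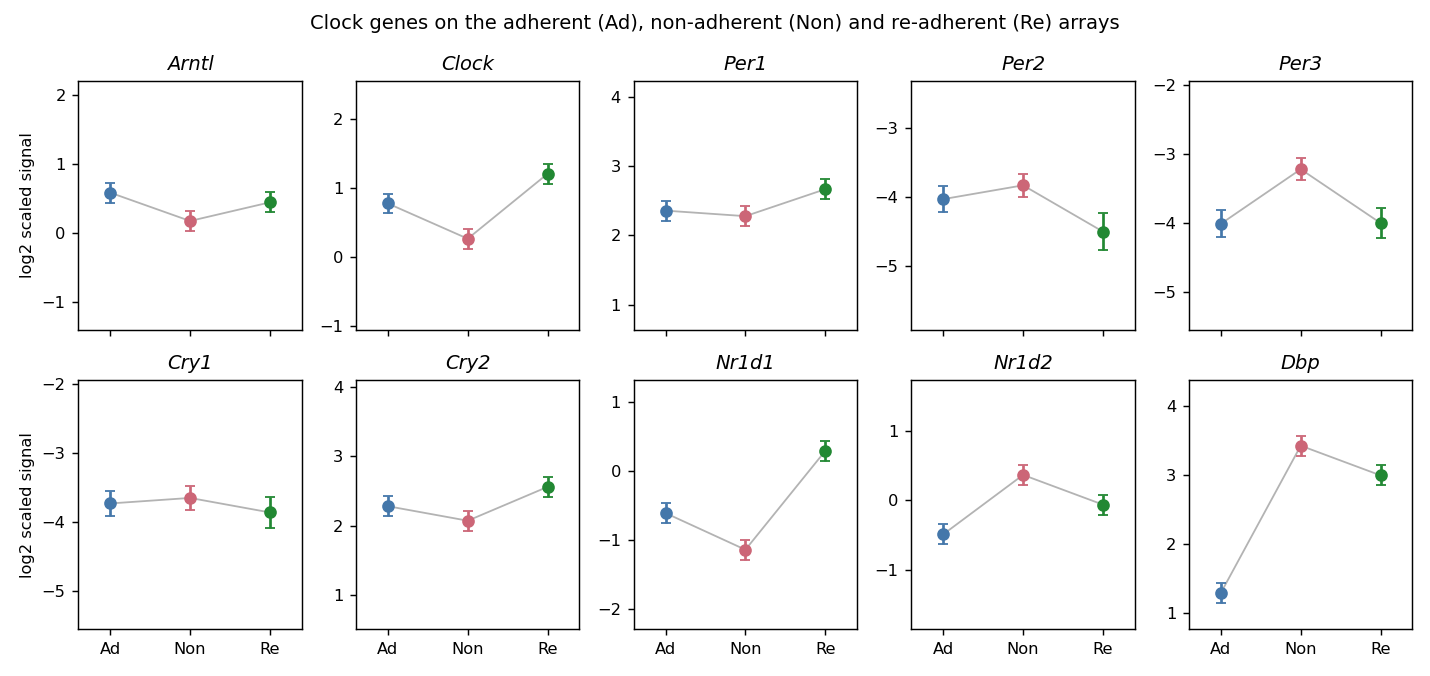
Log2 signal of each clock gene after division by the 75th percentile of its array, in the order adherent, non-adherent, re-adherent along the x axis, with 1 array per state; bars show the scanner software's error, and all panels span the same number of log2 units around their own mean. Dbp climbs from 1.29 to 3.42 in suspension and stays at 2.99, Nr1d1 dips to -1.14 and ends at 0.29, and Cry1 stays between -3.86 and -3.65.

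Differences between genes on the same arrays, which no factor applied to a whole array can alter, set Dbp beside the genes of the core loop. Dbp minus Arntl was 2.54 in suspension and 1.84 between re-adherent and adherent cells, each with an error of 0.29. Dbp and Nr1d1, which share the same activators, differed by 2.66 in suspension and by -1.86 on re-adhesion, with the same error. Dbp was highest in suspension and Nr1d1 after re-adhesion. In re-adherent against adherent cells both were higher, by 1.70 and 0.91, and differed from each other by 0.80. Dbp and Nr1d2 differed by 1.27 in suspension and by 0.00 on re-adhesion.

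Sequence upstream of the transcription start is shown for Dbp and Nr1d1, the genes that passed 2-fold. It is also shown for Nr1d2, the paralog of Nr1d1, which did not pass 2-fold, and for Per3, which holds 2 D-boxes. RefSeq start-site windows on GRCm38.p6 covered 9 of the 10 genes, all but Per2, with 13 windows, and the 250 bases before each start were searched on both strands. The motifs were the E-box CACGTG, its variant CACGTT, the D-box as TTATGTAA or TTACGTAA, the site of NR1D and ROR proteins as TAGGTCA or TGGGTCA, and the cAMP response element TGACGTCA. The E-box and its variant, which differ in their last base, were counted apart, and the spellings of the D-box and of the NR1D and ROR site were each counted together. Capitals mark the matches, and each sequence runs 5′ to 3′ on the strand of its gene. The windows lie at chr7:45704997-45705246 on the plus strand for Dbp, chr11:98775378-98775627 on the minus strand for Nr1d1, chr14:18239107-18239356 on the minus strand for Nr1d2 and chr4:151044666-151044915 on the minus strand for Per3.
Dbp: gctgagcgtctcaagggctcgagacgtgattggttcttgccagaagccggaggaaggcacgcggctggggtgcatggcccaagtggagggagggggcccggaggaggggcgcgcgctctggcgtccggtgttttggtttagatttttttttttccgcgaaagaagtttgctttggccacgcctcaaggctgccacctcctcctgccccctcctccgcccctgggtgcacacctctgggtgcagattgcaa
Nr1d1: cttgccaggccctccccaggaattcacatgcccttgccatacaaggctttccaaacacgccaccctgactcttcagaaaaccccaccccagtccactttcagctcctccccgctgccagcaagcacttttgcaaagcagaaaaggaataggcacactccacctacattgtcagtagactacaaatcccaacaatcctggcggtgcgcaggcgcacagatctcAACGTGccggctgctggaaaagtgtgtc
Nr1d2: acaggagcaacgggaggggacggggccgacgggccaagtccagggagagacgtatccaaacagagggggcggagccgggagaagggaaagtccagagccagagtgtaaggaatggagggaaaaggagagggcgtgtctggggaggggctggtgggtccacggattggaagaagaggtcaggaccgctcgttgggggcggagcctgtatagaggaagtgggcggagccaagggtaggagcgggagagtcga
Per3: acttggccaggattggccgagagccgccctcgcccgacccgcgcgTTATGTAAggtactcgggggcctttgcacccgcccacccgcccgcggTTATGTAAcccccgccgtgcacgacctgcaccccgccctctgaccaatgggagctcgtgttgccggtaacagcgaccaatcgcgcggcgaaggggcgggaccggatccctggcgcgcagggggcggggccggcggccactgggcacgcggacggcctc

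In these letters Nr1d1 held the variant E-box, read as AACGTG on its own strand, 28 to 23 bases before the start. Per3 held TTATGTAA at 2 places, 205 to 198 and 158 to 151 bases before the start, and 0.931% of 32851 windows of all genes held a D-box. The windows of Dbp and Nr1d2 held none of the 5 motifs. Elsewhere in the list, the E-box stood in the upstream window of Per1, not in its other window, and in the window of Cry1. These were 2 of the 13 windows, against 6.02% of all windows. The variant, held by Nr1d1, also stood in the windows of Cry1 and Cry2, making 3 of the 13, against 3.85%. The NR1D and ROR site and the cAMP element were in 0 of the 13 windows, against 5.38% and 1.55% of all windows. A match is a run of letters. These short windows leave out the bases after the start, and the introns and distant sites through which clock factors also act. The absence of a match here is not the absence of a site in the gene.

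Other genes of the clock pathway were counted from a list of 25, of which 23 passed the filter on dim probes. Of these 23, 6 rose and 3 fell in suspension, 0 rose and 6 fell on re-adhesion, and 0 were higher and 1 was lower in re-adherent than in adherent cells. As shares of the 23 these were 26.1%, 13.0%, 0%, 26.1%, 0% and 4.35%, to be read beside the shares of all genes given above. The 6 rises in suspension became 3 with spike-in scaling and 2 with the normexp correction, and the 3 falls became 0 without scaling. The 6 falls on re-adhesion became 3 with the normexp correction.

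Among repressors outside the list, the paralogs Bhlhe40 and Bhlhe41 encode factors that compete with ARNTL and CLOCK for E-boxes. Bhlhe41 read 75.4, 394 and 113 units. Suspension brought a rise of 2.29, with an error of 0.22. It then fell by 1.44 and ended 0.85 above its adherent level. Its second probe gave 2.88, -2.03 and 0.84. Bhlhe40 read 748, 1615 and 619 units, rose by 1.01 and then fell by 1.02, each with an error of 0.20. Both lie at the threshold, and over the settings tried they ran from 0.81 to 1.11 and from -1.38 to -0.93. Cipc, which encodes a protein that binds CLOCK, was 0.89 higher in suspension and fell by 1.23 (-1.60 to -0.83 over the settings tried), but its second probe gave 0.48 and -0.42. Nfil3, which encodes a repressor that competes with DBP for D-boxes, fell by 1.09 in suspension (-1.29 to -0.99 over the settings tried), with 7621, 3830 and 5736 units, and was 0.95 higher again on re-adhesion. Dbp minus Nfil3 was 3.22 in suspension and 1.85 between re-adherent and adherent cells, each with an error of 0.29.

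Tef and Hlf encode the other PAR bZIP activators. Tef read 8594, 15240 and 9443 units and was 0.73 higher in suspension and 0.40 higher at the end, with an error of 0.20. The last value was -0.07 with spike-in scaling. Hlf read 96.9, 210 and 33.2 units, rose by 1.02 with the loss of adhesion (0.65 to 1.12 over the settings tried), fell by 2.30 afterwards (-2.66 to -1.0, the last with the normexp correction), with an error of 0.29, and ended at -1.28 (-1.75 to -0.35) against adherent cells. In re-adherent against adherent cells Dbp minus Tef was 1.30 and Dbp minus Hlf 2.98, with errors of 0.29 and 0.36.

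Rora, which encodes an activator at the sites that NR1D proteins repress, read 279, 552 and 254 units and was 0.89 higher in suspension and 0.76 lower on re-adhesion, with an error of 0.21. Rora minus Nr1d1 was 1.41 in suspension and -2.19 on re-adhesion, with an error of 0.29. Rorb stayed within its errors, although its second probe gave -0.69 in suspension. Arntl2, a paralog of Arntl, was dim and fell by 1.08 in suspension (-1.28 to -0.63 over the settings tried), with an error of 0.25, while its second probe gave -0.91. Npas2, a paralog of Clock, did not pass the filter.

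Of 8 genes for kinases and ubiquitin ligase parts that act on PER and CRY proteins, 2 rose in suspension, where 17.2% of all genes did, and 1 fell on re-adhesion, where 16.3% did. The risers were Fbxl21 (1.21) and Btrc (1.03), and Btrc was also the gene that fell, by 1.09. A second probe of Btrc gave -0.49 and 0.13, so Btrc had no settled pattern. The probes of Fbxl21 gave 1.21 and 0.97 in suspension but -0.27 and 1.45 on re-adhesion, where its direction was not settled. Fbxl21 was dim, at 19.5, 48.1 and 31.1 units, and its second probe was not well above background in adherent cells. The casein kinase genes Csnk1e and Csnk1a1 were -0.64 and -0.63 in suspension and 0.56 and 0.57 on re-adhesion, and each had a second probe in the same direction.

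Among 4 output genes, Nampt, which encodes an enzyme of NAD synthesis, read 1371, 4159 and 1088 units, a rise of 1.5 followed by a fall of -1.57, with errors of 0.20. Noct, which encodes a circadian phosphatase, fell by 1.03 in suspension, from 2084 to 1090 units, a value that ran from -1.23 to -0.93 over the settings tried. Usp2, which encodes a ubiquitin protease, was 0.93 higher in suspension and 0.51 higher at the end, and Wee1, a cell cycle kinase gene, stayed within 0.20 in all comparisons.

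**Figure D3:**
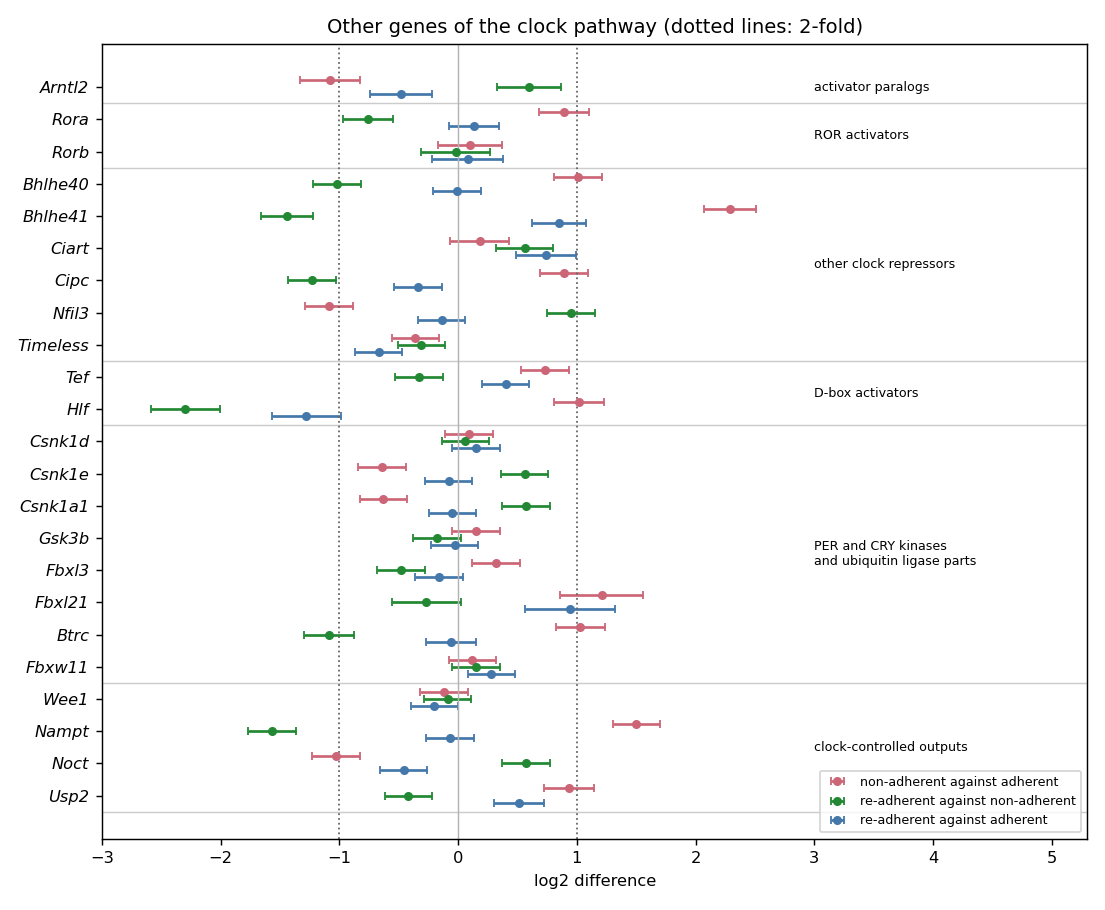
Log2 differences of 23 other clock pathway genes in the 3 comparisons (points, 1 array per state; bars, the scanner software's error), grouped by role, with 2-fold as dotted lines. Bhlhe41 (2.29) and Nampt (1.5) lie farthest right for the step into suspension, Hlf (-2.30) lies farthest left for re-adhesion, and in re-adherent against adherent cells Hlf (-1.28) is the gene beyond 2-fold.

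Markers of other cells moved in the same pairs of arrays. Of 13 macrophage markers 11 passed the filter, 10 of them rose in suspension, and their summed signal, each array divided by its 75th percentile, was 185, 1127 and 375. Ptprc, which encodes CD45, the protein the cells were chosen to lack, was among them and differed by 2.68, -1.83 and 0.85. Itgam went the other way in suspension, at -0.84, and on re-adhesion, at 0.68. Of the 11 macrophage markers 10 fell on re-adhesion, and 5 were more than 2-fold higher in re-adherent than in adherent cells. Cd163 did not pass, and no probe was matched to Cd68. The corresponding sums were 23.8, 38.9 and 22.3 for 10 endothelial markers. Kdr gave 14.5, 11.4 and 19.1 of these, most of the signal in adherent and re-adherent cells, and Egfl7 gave 6.92, 15.3 and 2.26. Kdr itself differed by -0.35, 0.74 and 0.39. For 10 myofibroblast markers the sums were 2281, 633 and 2107. Of these myofibroblast markers 5 fell in suspension, and Acta2, the smooth muscle actin gene that defines myofibroblasts, differed by -6.64, 6.57 and -0.07. Of the 10 endothelial markers 7 rose in suspension, 9 fell on re-adhesion with a median of -3.43, and 7 were more than 2-fold lower in re-adherent than in adherent cells with a median of -1.99. After re-adhesion Cldn5, Tie1 and Emcn were not well above background. Of 8 cardiomyocyte markers 4 passed, with sums of 1.03, 1.65 and 3.19, and Actn2, Ryr2, Pln and Ttn did not pass. Tnnt2 made up most of these sums, with 0.911, 1.37 and 3.04. On re-adhesion Tnnt2 differed by 1.15 and Myl2 by 0.17, but Myh6 by -1.13 and Tnni3 by -2.9. Tnni3 was well above background in suspension only. Of 12 proliferation genes 4 fell and 0 rose in suspension, and of 10 reference genes 1 rose, B2m. These counts stand beside 17.2% of all genes that rose and 14.7% that fell in suspension. On re-adhesion 16.3% of all genes fell, and in re-adherent against adherent cells 4.9% were lower and 4.84% higher. The part of these cells in the differences of the clock genes was not tested, and in RNA from mixed cells a lower share of a cell type cannot be told apart from less RNA per cell.

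The genes with the pattern nearest to a clock gene were sought for Arntl, Per2 and Nr1d1, by the distance in the differences of both steps among 13469 genes well above background on all 3 arrays. Mrps22, Pnmt and Kifap3 lay nearest to Arntl, Gkn3, Zfp800 and Parp2 nearest to Per2, and Baalc, Htra1 and Pramel13 nearest to Nr1d1. With 3 arrays this measure separates little: 1237 genes lay within 0.25 of Arntl, 342 of Per2 and 54 of Nr1d1.

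**Figure D4:**
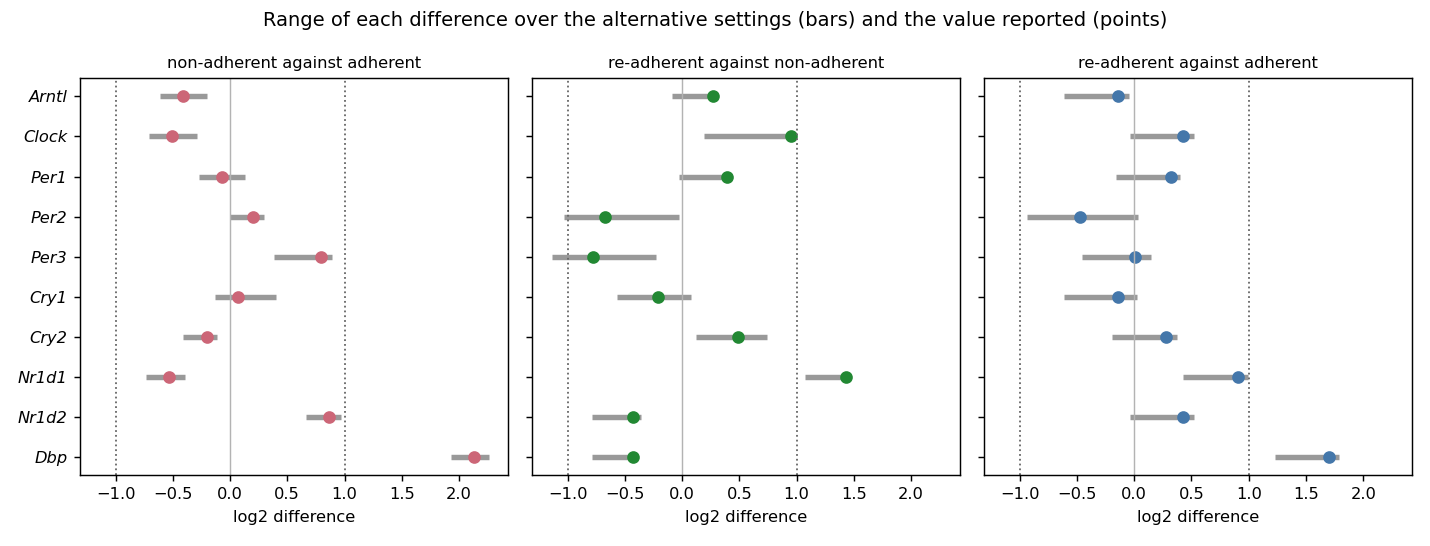
Log2 difference of each clock gene as reported (points) and its lowest and highest value over 14 alternative settings (grey bars), with 2-fold as dotted lines. Dbp stays beyond 2-fold in suspension (1.93 to 2.26) and against adherent cells at the end (1.23 to 1.79), Nr1d1 stays beyond it on re-adhesion (1.07 to 1.45), and the bars of Per1 cross zero in all comparisons.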

How the data were processed

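Gene expression was measured on 1-colour (Cy3) Agilent arrays, 1 per state. The deposited scanner files held intensity values (processed signal, corrected for background by the software, and an error per spot) made with Agilent Feature Extraction 10.10.1.1. The authors' value table held intensity too, and equalled that signal times 1.52, 1.52 and 1.62 for the 3 states in order, with column medians of 60.8, 61.8 and 50.7; it is neither centred nor turned, and only the rule behind its factors is unknown. Spots flagged as outliers (154 to 180 per array) were dropped, 0 were saturated, and the 75th percentile of the 59305 spots that are not controls was taken off each array's log2 signals. Transcript names were matched to RefSeq (21465 of 37881). A gene was read by its brightest probe among those well above background on at least 1 array. The members and gene lists were chosen with earlier results of these data known. Up to 4 genes per pathway list were named, those with the largest difference in either step; marker and reference genes, and Sik1, were named after their values were seen. The pipeline was tested on simulated data. Analysis used Python 3.11.15, pandas 2.3.3 and limma 3.58.1 (normexp, offset 50). The normexp correction used median spot signals, the only raw signals used here. The array grid was built on mm9, so no probe coordinates are given. With 3 arrays, their number limits the precision.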

Additional observations from a re-analysis of the deposited data

How the results depend on the processing

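With 1 array per state no replicate could be left out, and no paired analysis was possible because no group had a second array. Of 138 recomputed counts and medians 120 kept within the limits set, which were 1.5 times for counts and the technical error of 0.20 for medians. Some settings could not move these values. All clock genes were well above background on each array, so changing the filter or raising low signals returned the same values. Only Dbp had a second probe, so the settings for probes could move Dbp alone. In suspension 3 clock genes rose at a threshold of 1.5-fold in place of 1, and the median was -0.20 with spike-in scaling. On re-adhesion the count that fell, 0, was 2 without scaling, 1 with spike-in scaling, with the authors' values and with reference gene scaling, and 2 at 1.5-fold. The count that rose, 1, was 2 at 1.5-fold and 0 at 4-fold. The median, 0.03, was -0.33 without scaling, -0.24 with spike-in scaling and with the authors' values, -0.23 with reference gene scaling and -0.19 with the surrounding spots subtracted, a setting chosen after seeing the data. Between re-adherent and adherent cells the count that was higher, 1, was 2 at 1.5-fold and 0 at 4-fold, and the median, 0.30, was 0.03 without scaling and -0.17 with spike-in scaling. These scalings moved the median of all genes as well, in re-adherent against adherent cells from 0.06 to -0.20 without scaling and to -0.41 with spike-in scaling. The thresholds change counts by construction; the cause of the other shifts is the factor applied to each array, or for the surrounding spots was not tested. Dbp and Nr1d1 kept their calls over 2-fold and their direction under all 14 settings, some of which could not change them, as stated above. Of 420 values of single clock genes 64 moved by more than their technical error. The rest include the values that the filter and probe settings could not move. Recounting the other clock pathway genes and the CREB or serum genes under these settings was chosen after seeing the data.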

Other observations

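Genes that answer to the signals known to reset the clock were counted as well. Of 6 genes driven by CREB or serum, 3 rose in suspension, 3 fell on re-adhesion and 4 were more than 2-fold lower in re-adherent than in adherent cells, against 17.2%, 16.3% and 4.9% of all genes. The 4 became 2 with median scaling, where Nr4a1 and Sik1 were at -0.96 and -0.97, and the 3 rises became 2 with spike-in scaling, where Egr1 was at 0.83. Fos read 1205, 18678 and 415 units in adherent, suspended and re-adherent cells, a rise of 3.86 and a fall by 5.13 on the log2 scale. Egr1 and Nr4a1 rose by 1.03 and 1.57, then fell by 2.50 and 2.62, ending at -1.47 and -1.05 against adherent cells. Crem was 0.68 higher in suspension and 0.90 higher at the end, with an error of 0.20. Per1, which is induced by the same inputs, differed by -0.07 in suspension and 0.39 on re-adhesion on the same arrays. The last value ran from -0.03 to 0.40 over the settings tried. Of 5 genes induced by glucocorticoids, 1 rose in suspension and 1 fell on re-adhesion, in both cases Zbtb16, with 1.23 and -1.87. Klf9 and Tsc22d3 were 0.90 and 0.88 higher in suspension and 0.96 and 0.72 lower on re-adhesion, and Fkbp5 was 0.68 lower in suspension.

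Genes with a clock motif in the 250 bases before a start were set beside all 12249 genes with such a window. The 1120 genes with an E-box had a median difference of -0.02 in suspension, against -0.07 for all, and 17.9% of them rose, against 16.8%. The 108 genes with a D-box had a median of -0.18 in suspension and 0.09 in re-adherent against adherent cells, where the median of all was 0.07. The 664 genes with the NR1D and ROR site had medians of 0.03 in suspension and 0.08 on re-adhesion, against -0.07 and 0.09. Of the 332 genes with the cAMP response element, 9.94% rose in suspension, against 16.8% of all, and 11.7% fell, against 14.5%. Their median there was -0.09, against -0.07. On re-adhesion 11.4% of them rose and 10.8% fell, against 15.3% and 15.6%, so both directions were rarer in each step. In re-adherent against adherent cells 0.904% were higher, against 4.7%, and 4.52% were lower, against 4.55%. These are descriptions with no test.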
